A study of Mus musculus with 2 samples.

Results

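The caudal homeobox family has 3 genes in the mouse, Cdx1, Cdx2 and Cdx4, and each had 1 entry among the 30774 gene identifiers of the arrays. They were found among the identifiers by symbol. RNA was compared between C57BL/6 (B6) mouse embryonic stem cells (mESCs) grown in serum and LIF, a cytokine acting through Stat3, and the same cells given LIF plus CHIR99021 (CHIR), a small molecule that blocks GSK3 and so turns on the Wnt/β-catenin pathway. CHIR was present or absent for 12 h, and both groups received LIF. There was 1 Illumina beadchip per condition, 2 in all, so the spread between cultures was not measured and the differences carry no test. The labels give the source of the cells as the inner cell mass of the pre-implantation embryo and give neither the dose of CHIR nor the number of cultures behind each array, whereas the culture methods of the study name another mESC line, 46C.

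Cdx proteins are homeodomain transcription factors related to Drosophila caudal. In the post-implantation embryo they act in the posterior primitive streak and tailbud, downstream of Wnt, FGF and retinoic acid signals, and they activate Hox genes along the trunk. Cdx2 is also needed for the trophectoderm, the outer layer of the blastocyst, where it opposes the pluripotency factor Oct4 (Pou5f1), and Cdx1 and Cdx2 later maintain the intestinal epithelium.

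Markers of the labelled cell type were mostly bright, with Pou5f1 at 12346 (LIF) and 11309 (LIF plus CHIR). Of 12 pluripotency genes, 9 were detected on both arrays and 3, Sox2, Klf5 and Nr0b1, on neither. Sox2 was at 441.2 (LIF) and 400.2 (LIF plus CHIR), with detection p-values of 0.0503 and 0.276. Klf5 was at 7356 and 8295, with detection p-values of 0.272 and 0.486, and Nr0b1 was at -3.37 and -4.61. None of 8 fibroblast genes was detected on either array, and their signals summed to 233 (LIF) and 219 (LIF plus CHIR). Thy1 carried most of that sum, at 222.3 and 225.3 with detection p-values of 0.354 and 0.302, and the others lay between -11.4 and 24.7. Of 4 trophoblast markers, Elf5, Gata3 and Hand1 were detected on neither array, and Krt7 was detected on both at 57.3 (LIF) and 54.5 (LIF plus CHIR). A wider trophectoderm list, described further on, had 9 of 17 genes detected. Detected means a detection p-value, which compares a signal with the negative control beads, under 0.01. A total of 8580 identifiers were detected on both arrays and 9615 on at least 1. In bulk RNA, a change in the number of cells that express a gene and a change in RNA per cell cannot be told apart.

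Cdx1 was the member with the clear difference. The LIF array gave it a signal of 75.2, with a detection p-value of 9.13e-06, and the LIF plus CHIR array gave 963.2, with a detection p-value of 0. Both arrays detected it, and the array with CHIR was brighter by 888.0 units. The ratio was 12.8, a log2 fold change of 3.68. Cdx2 was at 23.6 in LIF, with a detection p-value of 0.0865, and at 93.5 in LIF plus CHIR, with a detection p-value of 0. Only the array with CHIR detected it. Against the lowest detected signal of comparable identifiers in LIF, 51.9, Cdx2 was at least 1.80-fold higher (log2 0.85), and the plain ratio of 3.96 rests on an undetected signal. Cdx4 was at 10.2 in LIF (detection p-value 0.196) and 23.3 in LIF plus CHIR (0.0919). Neither array detected Cdx4, so no fold is given for it.

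**Figure D1:**
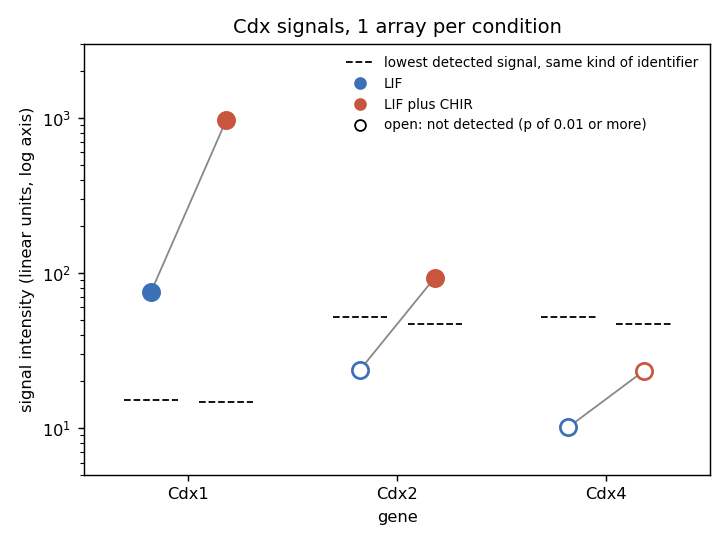
Signal intensity (log axis) of Cdx1, Cdx2 and Cdx4 on the LIF array (blue) and the LIF plus CHIR array (red), 1 array per condition and no error bar; filled circles are detected signals, open circles are not, and dashed lines mark the lowest detected signal of the same kind of identifier. Cdx1 goes from 75.2 to 963.2, Cdx2 crosses its dashed line only with CHIR, and Cdx4 stays below it on both arrays.

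Thus 2 of the 3 members passed the limit of 1.5-fold as higher, Cdx2 as a bound, and none as lower. Cdx2 fell under that limit under 2 of the alternatives, at 1.02-fold with normexp background correction fitted on all identifiers and at 1.24-fold with the lowest signal above all negative controls as the minimum. Over all identifiers detected on at least 1 array, 288 or 3.0% were at least 1.5-fold higher and 304 or 3.16% at least 1.5-fold lower, and the median log2 fold change was 0.00. Dim identifiers pass this limit more often, so each member was also read against its own range of brightness. Where the brighter signal was within 1.5-fold of that of Cdx1 (642 to 1445), 30 of 1494 identifiers or 2.01% were higher, and 90% of the log2 fold changes lay between -0.37 and 0.37. Apart from Cdx1, 1 identifier in that range had a value as large, Sp5, a Wnt-responsive zinc finger factor with signals of 48.8 (LIF) and 809.5 (LIF plus CHIR). In the range around Cdx2 (62.3 to 140.2), 87 of 1621 identifiers or 5.37% were higher and 27 others had a value at least as large as its bound. The position of Cdx2 was thus shared with other dim identifiers, whereas that of Cdx1 was shared with 1.

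**Figure D2:**
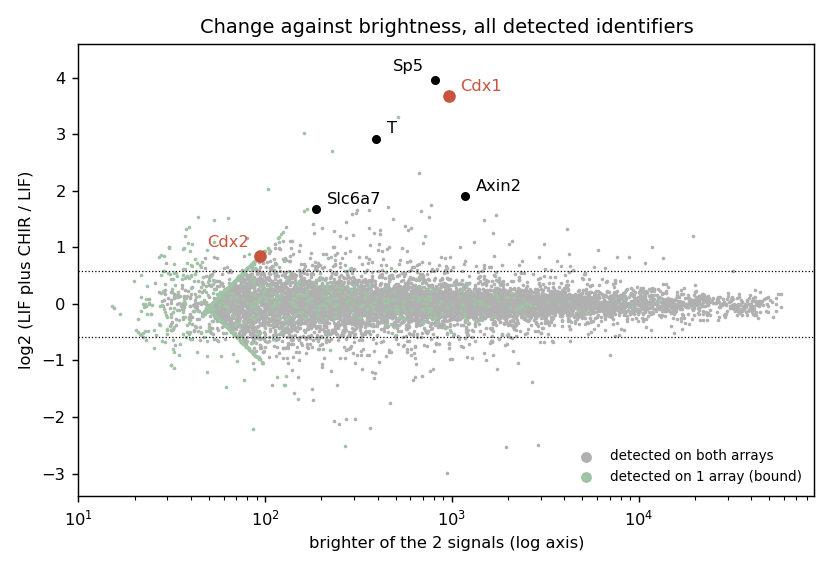
Log2 ratio of LIF plus CHIR over LIF against the brighter of the 2 signals (log axis) for all 9615 detected identifiers; grey points were detected on both arrays, green points on 1 array, where the value is a bound or rests on an undetected signal and forms the slanted edges at low signal, and dotted lines mark 1.5-fold. Cdx1 at 3.68 lies far above the band of points of its brightness, and Cdx2 at 0.85 lies on the edge formed by bounds.

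Among the 8580 identifiers detected on both arrays, Cdx1 had the highest ratio of all. The 5 with the nearest log2 fold change, by absolute difference over the 2 arrays, were therefore the next in order. Pglyrp1, a peptidoglycan recognition protein, followed at 5.0-fold, with signals of 133.1 in LIF and 665.3 in LIF plus CHIR. Axin2, a feedback inhibitor of Wnt/β-catenin signaling, was 3.75-fold higher, from 314.1 to 1178. Pgc, the pepsinogen C gene, was 3.36-fold higher, from 230.0 to 771.8. The Wnt receptor gene Fzd10 was 3.29-fold higher, from 139.0 to 457.5, and the proline transporter gene Slc6a7 was 3.20-fold higher, from 58.6 to 187.4. The nearest of these, Pglyrp1, lay 1.36 below Cdx1 on the log2 scale. By difference of signal rather than ratio, Cdx1 ranked 205th of the same identifiers.

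The rank of a signal within its own array does not depend on scaling between arrays. Cdx1 moved from the 69.7th percentile of all identifiers in LIF to the 88.6th in LIF plus CHIR, a rise of 18.9 points. No other identifier detected on both arrays rose as far, and for these identifiers 90% of the changes lay between -2.28 and 2.12 points. Identifiers already bright in LIF have little room to rise, which narrows this range and limits how many could rise as far. Sp5 and T (Brachyury), detected only in LIF plus CHIR, rose further than Cdx1, by 21.5 and 34.2 points. Cdx2 moved from the 58.3rd to the 71.4th percentile, a rise of 13.1 points. Of the 594 identifiers detected only in LIF plus CHIR, 19 others or 3.20% rose at least as far. Cdx4 moved from the 49.7th to the 58.3rd percentile, or by 8.58 points. Among the 21159 identifiers detected on neither array the changes spread from -18.7 to 18.5 points (5th to 95th percentile), and 17.9% rose at least as far as Cdx4. The signal difference of Cdx4, 13.2 units, was reached by 6.15% of them, so it was not detectable above the spread of undetected signals.

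**Figure D3:**
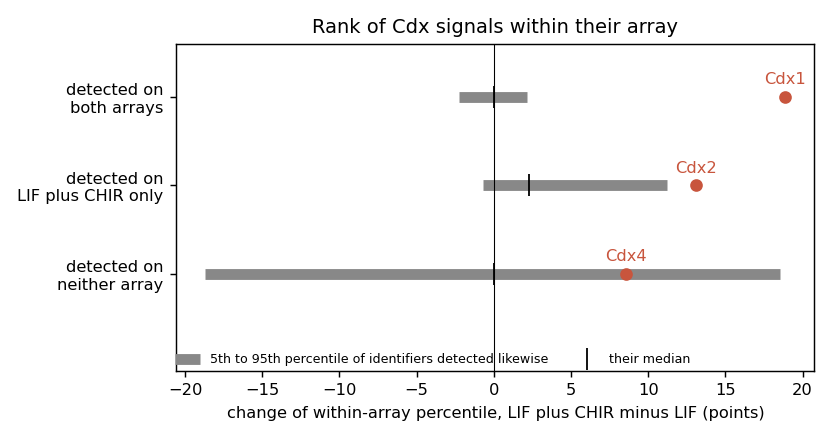
Change of the within-array percentile, LIF plus CHIR minus LIF, of each Cdx gene (red) beside the 5th to 95th percentile (grey bar) and median (tick) of all identifiers detected on the same arrays as it was. Cdx1 (18.9 points) lies far to the right of its bar, Cdx2 (13.1) a little beyond the end of its bar at 11.2, and Cdx4 (8.58) inside its bar.

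To set the members' sequence beside these values, the 250 bases before the RefSeq start sites of Cdx2 and Cdx4 are shown in the direction of transcription. They were searched on both strands for the cores bound by TCF/LEF factors, the DNA-binding partners of β-catenin (CTTTGAA or CTTTGAT or CTTTGTA or CTTTGTT), and by Cdx proteins (TTTATTG or TTTATGG or TTTATAG or TTTATTA), and neither sequence holds any of these letters. That of Cdx1 was not analysed here. For comparison, 14.8% of 32851 RefSeq promoters of this length held a TCF/LEF core and 13.2% a Cdx core. Both sequences hold 1 copy of the octamer ATGCAAAT, which binds Oct factors, here in capitals, and 1.60% of the promoters held it on either strand. The octamer was searched for after the sequences had been read. A match describes the letters in this window and is no evidence of binding, and a missing match says nothing of elements elsewhere. The sequence before Cdx2 is GRCm38.p6 chr5:147307250-147307499 on the minus strand, with its octamer 147 to 140 bases before the start. That before Cdx4 is chrX:103321148-103321397 on the plus strand, with its octamer 93 to 86 bases before the start.
Cdx2: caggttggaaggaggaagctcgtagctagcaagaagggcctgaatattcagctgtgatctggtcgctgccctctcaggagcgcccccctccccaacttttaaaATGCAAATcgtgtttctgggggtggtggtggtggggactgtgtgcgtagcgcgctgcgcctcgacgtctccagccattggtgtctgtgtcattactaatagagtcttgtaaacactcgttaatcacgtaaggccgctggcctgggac
Cdx4: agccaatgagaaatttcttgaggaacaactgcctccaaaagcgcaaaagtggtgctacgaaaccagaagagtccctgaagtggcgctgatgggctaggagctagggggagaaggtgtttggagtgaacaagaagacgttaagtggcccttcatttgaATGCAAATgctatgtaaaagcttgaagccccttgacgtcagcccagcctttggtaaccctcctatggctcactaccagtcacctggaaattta

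The genes that flank each member on the chromosome were read next, by order in the RefSeq gene table. Cdx1 lies between Slc6a7 and the predicted protein-coding gene Gm52351, which had no match among the identifiers, in band 18qE1 by the array annotation. Slc6a7, the gene next to Cdx1 that was also among the 5 nearest to it in ratio, was detected on both arrays, with a detection p-value of 0.00534 (LIF) and 0 (LIF plus CHIR). It was 3.20-fold higher with CHIR (log2 1.68). Pdgfrb, a receptor for platelet-derived growth factor and the next gene beyond Gm52351, was detected on neither array (-3.79 and -5.67), and Camk2a, beyond Slc6a7, was also undetected at 45.7 (LIF) and 76.5 (LIF plus CHIR). Around Cdx2, in band 5qG3, the ParaHox genes Gsx1 and Pdx1 and the genes Urad and Flt3 were all undetected on both arrays, the highest signal among them being 19.6 for Gsx1 in LIF. Around Cdx4, in band XqD, 4930519F16Rik was detected on both arrays and was lower with CHIR, at 154.7 in LIF and 95.6 in LIF plus CHIR (log2 fold change -0.69). Nap1l2, Chic1 and Tsx were not detected. Chic1 was nevertheless at 208.9 (LIF) and 191.6 (LIF plus CHIR), with detection p-values of 0.126 and 0.0828. Of the 12 nearest genes of any kind, 2 on each side of each member, 4 were on the array and 1, Slc6a7, was detected. Counting protein-coding genes alone, chosen after these values were seen, 11 of 12 were on the array, 2 were detected and 1 was higher. Over all detected identifiers 3.0% were higher.

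**Figure D4:**
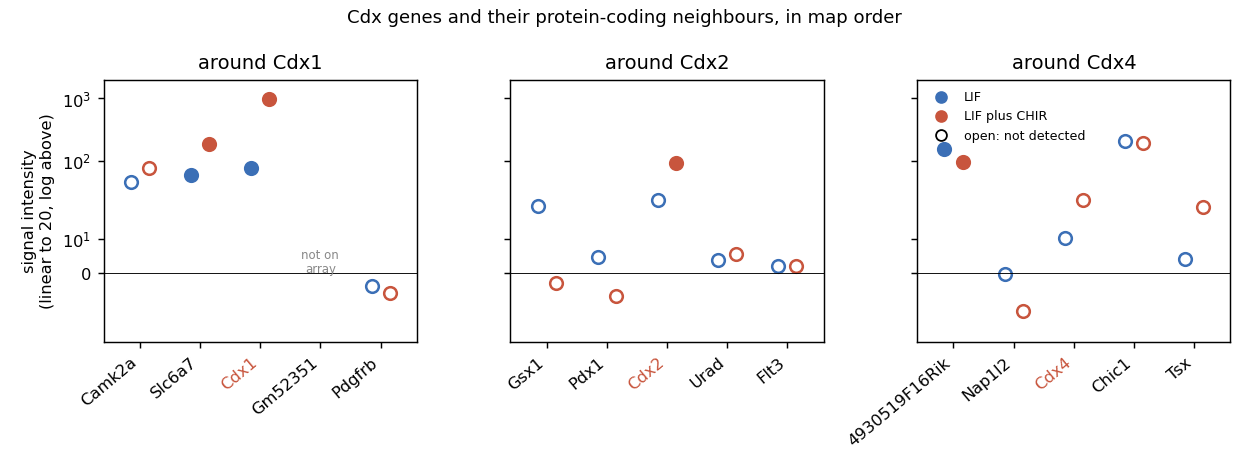
Signal intensity (linear up to 20, logarithmic above) of each Cdx gene and the 2 protein-coding genes on each side of it in map order, on the LIF (blue) and LIF plus CHIR (red) arrays; open circles are not detected. Slc6a7, beside Cdx1, is detected on both arrays and brighter with CHIR, while the 4 genes around Cdx2 are open on both arrays.

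The signals that act upstream of Cdx genes in the embryo differed among themselves. Of 16 such genes, all matched to the array, 10 were detected. Past the 1.5-fold limit, 4 of these were higher and 1 was lower. Among all detected identifiers the shares were 3.0% and 3.16%. The median log2 fold change of the 10 was -0.15, against 0.00 for all detected identifiers. Among the ligands, Wnt3a was 2.31-fold higher (108.7 in LIF, 251.7 in LIF plus CHIR) and Wnt8a was 2.56-fold higher (50.4 and 129.0). Fgf4, the main FGF ligand of mESCs, was lower at 430.1 in LIF plus CHIR against 712.7 in LIF (log2 fold change -0.73), and Wnt3 and Fgf8 were not detected. Aldh1a2, which makes retinoic acid, had a ratio of 1.74 (24.1 and 42.0) and Tcf7, a TCF/LEF factor, of 1.67 (27.5 and 46.0), both detected only with CHIR and both counted here among the higher although the ratio rests on an undetected LIF signal. Both fell under 1.5-fold with either normexp correction and with a pseudocount of 16, and below 1 with the minimum above all negative controls. The retinoid receptor genes Rara, Rarg and Rxra had log2 fold changes of -0.31, -0.38 and -0.27, and β-catenin itself (Ctnnb1) of -0.09, all under the limit.

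Of the genes expressed with Cdx genes in the posterior streak and tailbud, 14 were on the array. Detected on neither array were 9 of them, beside 21159 of all 30774 identifiers. Of the 5 detected, 3 were higher and 1 was lower, beside 3.0% and 3.16% of all detected identifiers. The mesoderm factor T (Brachyury) was at 8.05 in LIF, not detected, and 394.5 in LIF plus CHIR, at least 7.60-fold higher. Sp5 was at least 15.6-fold higher, and the homeobox gene Evx1 was 1.64-fold higher, from 116.5 to 191.4. The Notch ligand gene Dll1 went the other way, from 127.5 in LIF to 38.4 in LIF plus CHIR, where it was not detected (log2 -1.44 as a bound). Eomes, Mixl1, Tbx6, Mesp1, Mesp2, Cyp26a1, Nkx1-2, Hes7 and Gdf11 were detected on neither array. Eomes went from -3.90 in LIF to 27.2 in LIF plus CHIR and Nkx1-2 from 9.49 to 43.1. Mesp2 (-3.85 and -7.29) and Gdf11 (-6.25 and -8.95) were lower with CHIR, and all these values are undetected signals.

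No detected gene of the Hox, trophectoderm or intestinal lists passed 1.5-fold. Over all detected identifiers 3.0% were at least that much higher and 3.16% lower. With 2, 9 and 3 genes detected in these lists, none passing lies near that share. Hox genes are the best known targets of Cdx proteins, and the other lists are of lineages in which Cdx proteins act and include regulators of Cdx2 such as Tead4 and Yap1. All 39 Hox genes were on the array, 37 of them detected on neither, beside 21159 of all 30774 identifiers. The 2 detected with CHIR only were Hoxc4, at 43.2 (LIF) and 63.5 (LIF plus CHIR), and Hoxd11, at 37.3 and 50.8, and the highest Hox signal on either array was thus 63.5. Of 17 trophectoderm genes, 9 were detected, with a median log2 fold change of -0.07. Fgfr2, an FGF receptor gene, was at 354.8 (LIF) and 132.3 (LIF plus CHIR), but its detection p-values of 0.0225 and 0.0403 left it undetected and outside this count. Bmp4 had the highest value there, 0.53, and Krt8 and Krt18, keratins of simple epithelia, had -0.16 and -0.27. Of 16 intestinal genes, 15 were on the array and 3 were detected, Lgals4, Hnf4a and Heph. Of all 30774 identifiers, 9615 were detected on at least 1 array.

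Related homeobox genes gave a further comparison within the gene class. Of 9 ParaHox and neighbouring homeobox genes, Gbx2 was bright and nearly equal on the arrays (10911 in LIF, 10550 in LIF plus CHIR), and Meox1 was at 92.8 in LIF and not detected at 16.8 in LIF plus CHIR, at least 1.97-fold lower. Across all 158 identifiers whose array definition names a homeobox, a set drawn up after the values were seen, 23 were detected, 3 were higher and 3 were lower, with a median log2 fold change of -0.06. The set is not complete, since the definition of Evx1 does not use the word. The 3 higher ones were Cdx1, Cdx2 and Zfhx2, a zinc finger homeobox gene at 1654 (LIF) and 2935 (LIF plus CHIR). The 3 lower ones were Meox1, Rhox9 (2125 and 1195) and Rhox6 (835.0 and 555.7), the last 2 from the X-linked reproductive homeobox cluster. Of all 30774 identifiers 9615 were detected, and of these 3.0% were higher and 3.16% lower. The higher ones in the homeobox set include Cdx1 and Cdx2 themselves.

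Feedback targets of Wnt/β-catenin signaling, read as a check of the treatment, did not move together where detected. Of 10, 4 were detected, Axin2 alone was past 1.5-fold, and Notum, Apcdd1 and Ccnd1 had log2 fold changes of 0.02, 0.07 and 0.15. The 6 detected on neither array, Nkd1, Rnf43, Znrf3, Lgr5, Dkk1 and Tnfrsf19, have no fold. Their undetected signals were higher with CHIR except for Nkd1 (12.9 in LIF, 10.9 in LIF plus CHIR), with Tnfrsf19 at 1.65 and 30.9. Of the 9 detected pluripotency genes 3 were at least 1.5-fold higher, Klf2 (4332 in LIF, 7689 in LIF plus CHIR), Tfcp2l1 (7658 and 13485) and Tbx3 (176.7 and 414.3), and none was lower. Over all detected identifiers 3.0% were higher and 3.16% lower. The median log2 fold change of the 9 pluripotency genes was 0.55. Under the limit were Klf4 (0.58), Nanog (0.55), Esrrb (0.36), Zfp42 (0.08), Dppa3 (-0.04) and Pou5f1 (-0.13).

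**Figure D5:**
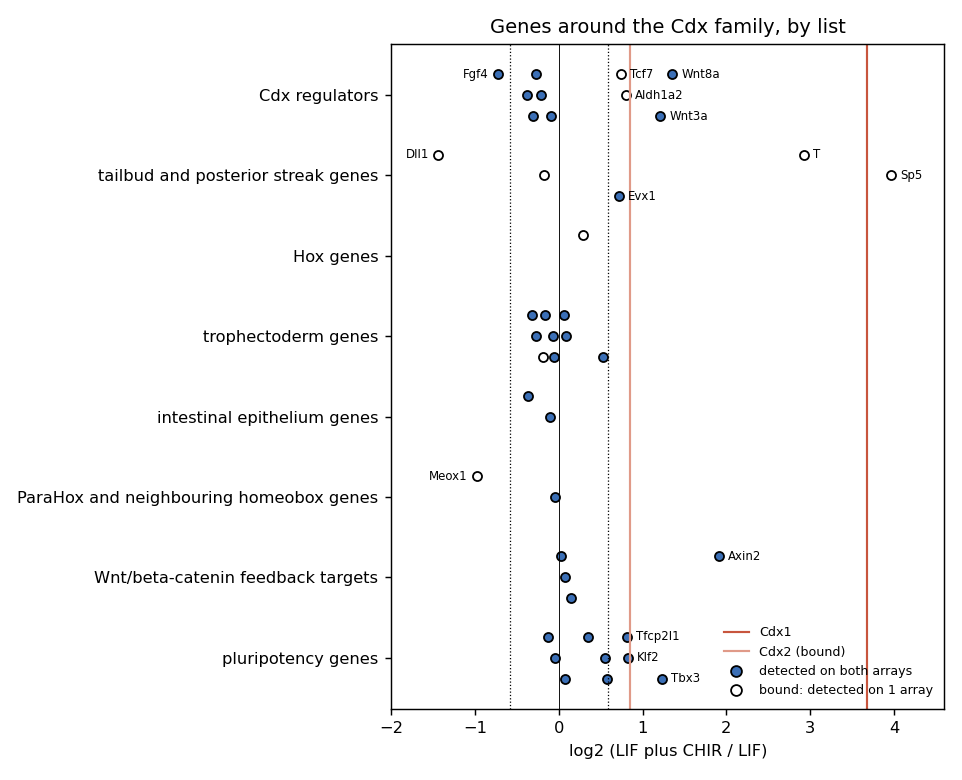
Log2 ratio of LIF plus CHIR over LIF for the detected genes of 8 lists (Hoxd11 and Heph, detected on 1 array and not brighter there, are left out), filled where both arrays detected it and open where 1 did and the value is a bound or, for Aldh1a2 and Tcf7, rests on an undetected signal, with dotted lines at 1.5-fold and genes past them named; the solid lines mark Cdx1 and the bound of Cdx2. Sp5 alone among these genes lies beyond Cdx1, and no detected Hox, trophectoderm or intestinal gene passes a dotted line. Of all detected identifiers, 3.0% were past 1.5-fold as higher and 3.16% as lower.

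The size of several of these differences depended on how the background correction was fitted. That of Cdx2 also depended on the minimum signal and the detection limit. With normexp background correction fitted on all identifiers, Cdx1 had a log2 fold change of 0.90 and ranked 19th, Cdx2 had 0.034, and Slc6a7 had 0.11. Fitted on identifiers with 1 probe, the same correction gave 3.43 for Cdx1, 0.69 for Cdx2 and 1.45 for Slc6a7. Cdx1 is also one of 7430 identifiers whose detection p-values appear to combine several probes, and such p-values follow the signal less closely: at a LIF signal of 50 to 100, 43.3% of these identifiers were detected, against 93.4% of those with 1 probe, and Klf5 was not detected at 7356 (LIF) and 8295 (LIF plus CHIR).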

How the data were processed

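Total RNA from 1 sample per condition was labelled with biotin and hybridized to Illumina mouse beadchips. For 30774 gene identifiers the authors deposited linear signal intensities with detection p-values, and a shorter table of 11702, in which Cdx4 has no entry and whose shared values differed in 0 cases. Intensities were already background-subtracted and had nearly equal medians (10.5 in LIF, 10.4 in LIF plus CHIR). By name the longer set is not normalized and the shorter is, although their shared values were the same. The software, normalization method and genome build are not given in the sources used here.

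Ratios of the array with CHIR to that without were taken in Python 3.11.15 (pandas 2.3.3, numpy 2.4.6, matplotlib 3.10.9) for identifiers that either array detected (detection p-value under 0.01). Dimmer signals were raised to the lowest detected one of the array, separately for the 23344 identifiers judged to have 1 probe (51.9 without and 47.1 with CHIR) and the 7430 with several (15.1 and 14.8), so that the ratio is then a bound, and undetected signals above it were used as they were. The 249 identifiers detected on 1 array and not brighter there, 6 of them past 1.5-fold, have no such bound. The first kind had detection p-values that, times 936 (the number of negative controls they imply), lay within 0.001 of whole numbers. List genes were matched by symbol or, for older array symbols, by Entrez gene number through the RefSeq table of GRCm38.p6, which also gave neighbouring genes and promoter sequences. On 30774 simulated identifiers, 200 of 200 changed 4-fold passed 1.5-fold in the right direction. Those changed were drawn from detected identifiers with a LIF signal over 200. Dim signals, such as those of the members in LIF, were therefore not tried. Normexp correction used limma 3.58.1 in R 4.3.3.

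The family, lists and limits were chosen with earlier results of these data known. Named genes are the 3 members, list genes past 1.5-fold or serving as examples, the chromosomal neighbours, and the 5 identifiers nearest to Cdx1 in log2 fold change. Alternatives were quantile normalization, scaling to equal medians, both normexp fits, other detection rules and minimum signals, a pseudocount of 16 and a limit of 2-fold. The precision is limited by the number of arrays.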

Additional observations from a re-analysis of the deposited data

How the results depend on the processing

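No paired analysis was possible because a single array stands for each condition. The log2 fold change of Cdx1 was 3.68 and stayed between 3.42 and 3.68 under every alternative run except normexp correction fitted on all identifiers (0.90), whose fitted background SD was 585.8 in LIF plus CHIR against 15.7 when fitted on identifiers with 1 probe. The bound of Cdx2, 0.85, became 0.034 under that normexp correction, 1.55 at a detection p-value under 0.05, 1.98 with 1 minimum signal for all identifiers or without a minimum, 0.31 with the lowest signal above all negative controls as the minimum, and 1.47 with a pseudocount of 16. Of these, 0.034 and 0.31 lie under 1.5-fold. With detection on both arrays Cdx2 has no value, and Cdx4 has none under any alternative. The percentile rises of the members, read among identifiers of the same kind (chosen after seeing the data), were 25.7 points for Cdx1, 11.8 for Cdx2 and 8.30 for Cdx4.

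Of 9615 identifiers detected on at least 1 array, those at least 1.5-fold higher and lower numbered 288 (3.0%) and 304 (3.16%). They were 59 and 47 under normexp fitted on all identifiers, 479 and 519 at the looser detection limit of 0.05, 186 and 194 with the minimum above all negative controls, and 78 and 54 at 2-fold. Among the detected genes of the lists above, those higher and lower numbered 11 and 3, beside the 3.0% and 3.16% over all. These list genes were 6 and 0 under that normexp correction and 6 and 1 at 2-fold. With detection on both arrays they were 7 and 1, beside 203 and 227 over all identifiers. Of 22 other named genes past 1.5-fold, 16 fell under it with that normexp correction, and 3 each with normexp fitted on identifiers with 1 probe (Aldh1a2, Tcf7 and Rhox6), a pseudocount of 16 (the same genes) and the minimum above all negative controls (Meox1, Aldh1a2 and Tcf7), where Aldh1a2 and Tcf7 changed sign. Signals near the negative controls give at most a bound.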
